A study of Mus musculus with 2 samples.

Results

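The genes described here are 10 goblet cell mucus genes, read in sorted intestinal stem cells of mice with and without circPan3, a circular RNA made from the Pan3 gene. They comprise 7 genes of secreted mucus and granule products (Muc2, Fcgbp, Clca1, Zg16, Tff3, Spink4 and Retnlb), the folding factor genes Agr2 and Ern2, and the goblet cell transcription factor gene Spdef. A member is a row of the deposited array table that the platform's annotation gives exactly 1 of these symbols, with the brightest row taken per symbol, and all 10 were found among 19584 named genes. The circPan3+/+ array held total RNA of Lgr5-GFP-positive cells sorted from the small intestine of 8-week-old circPan3+/+;Lgr5GFP-CreERT2 mice. The circPan3-/- array held the same kind of sample from circPan3-/-;Lgr5GFP-CreERT2 mice of that age. Both groups therefore carry the Lgr5GFP-CreERT2 allele, in which the promoter of the stem cell receptor gene Lgr5 drives green fluorescent protein and an inducible Cre, and the GFP gate selects cells by activity at that gene. How circPan3 was deleted and how many mice gave the cells of an array are not stated in the sources used here.

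There was 1 array per genotype. The differences below therefore carry no error and no p-value, and they compare 2 samples rather than 2 genotypes. In RNA of many cells, fewer cells of a type and less RNA per cell cannot be told apart.

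Goblet cells are secretory cells that lie among the absorptive cells of the intestinal epithelium and fill their apical pole with granules of mucin. The main mucin, MUC2, is assembled in the endoplasmic reticulum with the help of folding factors, packed into granules with smaller proteins, and unfolds after secretion into the mucus gel that keeps bacteria away from the epithelium. Goblet cells descend from the crypt base stem cells through secretory progenitors, and Spdef acts late in that path to complete their maturation.

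All 10 members had a higher signal in circPan3-/- than in circPan3+/+ cells. The same was true of 14706 of all 19584 named genes, so the direction alone does not set the members apart. The differences are circPan3-/- values minus circPan3+/+ values of RMA signal (log2). They ran from 0.99 for Retnlb to 3.27 for Clca1, with a median of 2.08. The median of 14546 named genes past a filter on low levels (a mean over both arrays of at least 2.53, the median of all rows) was 0.36, so the whole table leaned the same way and the differences are best read against that shift. As deposited, 9 of the 10 were higher by 2-fold or more, against 9.70% of named genes past the filter, and 0 were lower by as much, against 2.74%. After subtraction of the shift this held for 7 of the 10 (3.86% of named genes), after quantile normalization for 7 (4.32%) and after loess on mean level for 6 (3.47%). A difference of at least 4-fold was seen in 5 members and in 0.935% of named genes. Retnlb did not pass the filter, and the other 9 did.

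As a guide to background, a control limit was set at the 95th percentile of the negative control rows, which was 5.06 for circPan3+/+ and 5.56 for circPan3-/-. Values under it lie within the range of probes that should detect nothing. Where the dimmer value lay under its limit, a fold is given as a bound from that limit, and where both did, no fold is given. The 2 limits differ by 0.50 (log2), so a circPan3-/- value just at its limit already gives an upward bound of that size. The bounds are on the scale as deposited and are not corrected for the shift. With such bounds 7 members were higher by 2-fold or more, against 3.69% of named genes (and 0.536% lower by as much): Muc2, Fcgbp, Clca1, Zg16, Tff3, Spink4 and Agr2, which were above the limit on both arrays. That share includes 10150 of 14546 named genes with both values under the limits, whose bound is only the gap of 0.50. The 3017 named genes above the limit on both arrays are the closer background for these 7. Of the 3017, 400 were higher by 2-fold or more and 41 lower. Ern2 and Retnlb were under it on both, and Spdef on the circPan3+/+ array.

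**Figure D1:**
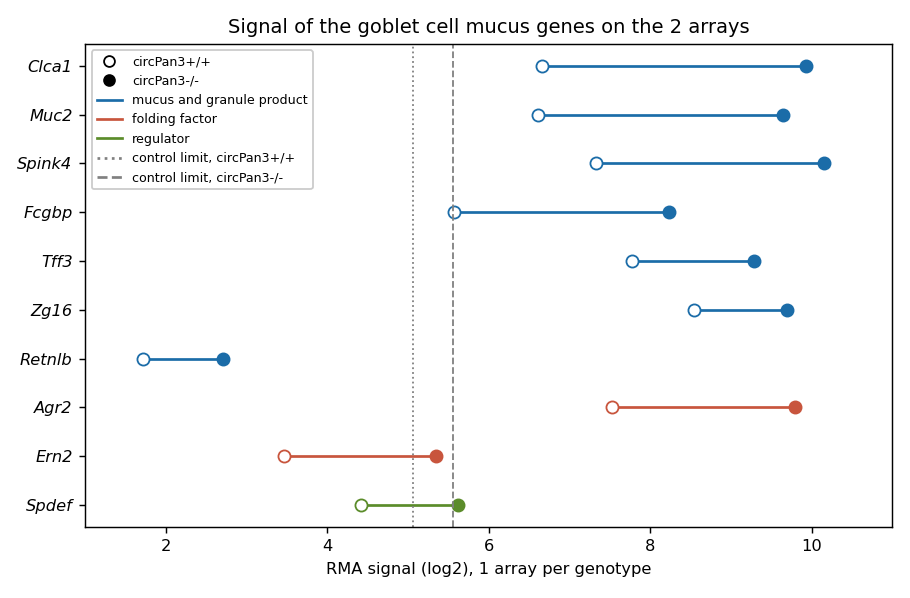
Each line joins the RMA signal (log2, horizontal axis) of 1 member gene on the circPan3+/+ array (open point) and on the circPan3-/- array (filled point), coloured by role, with the control limits of 5.06 and 5.56 as vertical lines. All 10 filled points lie to the right of their open points, and 7 genes lie above both limits throughout.

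The labels call these cells intestinal stem cells, and some stem cell markers were bright while others were not. Lgr5, the gene behind the gate, read 10.91 and 7.02 (circPan3+/+ first, here and below), and the stem cell marker Olfm4 had 11.53 and 10.28, all above the control limits. Ascl2, which specifies crypt stem cells, had 3.95 and 4.83, and Smoc2 3.49 and 5.43, all under them. Goblet products were thus read in sorted cells on both arrays, and the number of goblet cells or progenitors in the gate is not stated. The host gene Pan3 had 4.84 and 5.64; the table gives the gene 1 value and no separate reading of the circle, so this does not check the deletion. Repeated values were common in the circPan3+/+ column, where 69.1% of rows shared theirs with another row, and rare in the circPan3-/- column (4.20%); whether the columns were made alike is not known.

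Clca1, Muc2, Spink4 and Fcgbp were the members furthest apart. Muc2, which encodes the gel-forming mucin of the intestine, had a signal of 6.60 in circPan3+/+ cells, against 9.65 in the cells without the circle. The difference of 3.04, or 8.23-fold, put Muc2 at place 21 from the highest of 14546 named genes; its circPan3+/+ value stood in 6 rows of the table. Fcgbp, which encodes a large von Willebrand domain protein bound to the mucin network, had 5.57 and 8.23, a difference of 2.66 or 6.31-fold, at place 42. Its circPan3+/+ value lay only 0.51 above the control limit of that array. Clca1, which encodes a secreted metalloprotease that cleaves MUC2 and remodels the mucus, had 6.66 and 9.93, a difference of 3.27 or 9.66-fold. It stood at place 16, above every other member.

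Among the small secreted products, Spink4 lay near Muc2 in its difference, and Tff3 and Zg16 nearer to the bulk of genes. Spink4, a Kazal-type protease inhibitor gene of goblet granules, had signals of 7.32 and 10.16, a difference of 2.83 or 7.13-fold, at place 30. Tff3, which encodes the trefoil peptide co-secreted with MUC2, had 7.77 and 9.28, a difference of 1.51 or 2.86-fold, at place 382. Zg16, a lectin gene whose product binds the cell wall of Gram-positive bacteria and keeps them off the epithelium, had 8.55 and 9.69, a difference of 1.14 or 2.21-fold, at place 943. Relative to the median shift Tff3 stood at 1.16 and Zg16 at 0.79, so that Zg16 was no longer 2-fold apart, and after loess Tff3 at 0.99 was not either. Among the 7 mucus and granule products the differences thus ran from 0.99 for Retnlb, read under the control limits, to 3.27 for Clca1.

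Retnlb, which encodes the resistin-like cytokine RELMβ and is known as a goblet cell response to type 2 cytokines and to bacteria, had 1.72 and 2.71. Both values were under the control limits, so no fold is given, and its circPan3+/+ value stood in 1408 rows of the table. Clca1 is known to respond to interleukin 13 as well. Of the genes of the interleukin 13 receptor, Il13ra1 had 11.97 and 7.78, a difference of -4.19, and Il4ra 6.69 and 6.14, a difference of -0.55. Stat6, the factor that signals below that receptor, had 5.56 and 5.88, a difference of 0.32 that lies below the shift of all named genes.

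Both folding factor genes had a higher signal on the circPan3-/- array, Ern2 only between values under the control limits. Agr2, which encodes a protein disulfide isomerase of the endoplasmic reticulum that MUC2 assembly needs, had signals of 7.52 and 9.79. Its difference was 2.27, or 4.82-fold, at place 89. Ern2 encodes IRE1β, the stress sensor of the endoplasmic reticulum found in mucus-secreting epithelia. It had 3.47 and 5.35, a difference of 1.88 at place 165, but both values lay under the control limits, the circPan3-/- value by 0.21, and no fold is given.

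Spdef, the regulator, had signals of 4.42 and 5.62, a difference of 1.20 at place 815. Its circPan3-/- value lay 0.06 above the limit and its circPan3+/+ value under it, so the bound as deposited is at least 1.47-fold. In log2 that bound is 0.56, of which the gap between the 2 limits makes up 0.50. That circPan3+/+ value stood in 117 rows of the table. Relative to the shift Spdef stood at 0.84 and after loess at 0.74, under 2-fold in both. As deposited, the difference of Spdef lay above those of Zg16 and Retnlb and below those of the other mucus and granule products. Whether the difference of the regulator is smaller than those of the products as a group was not tested.

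**Figure D2:**
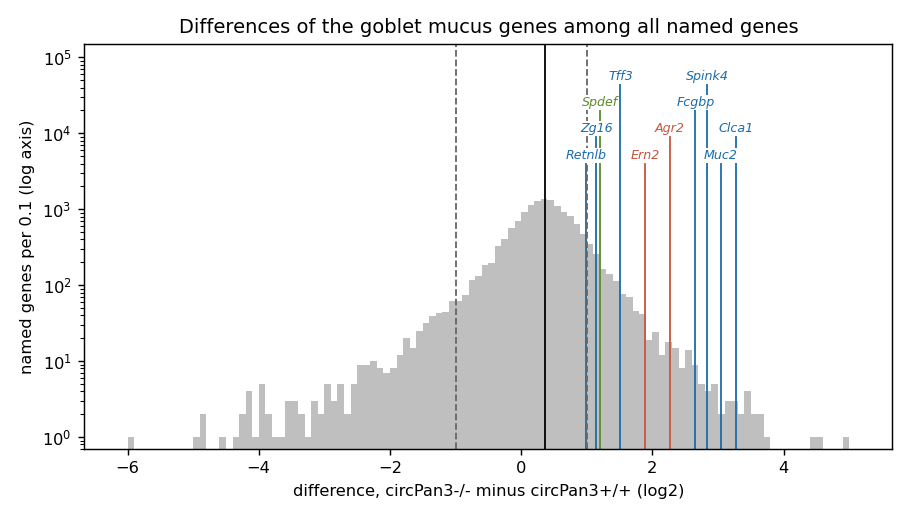
Grey bars count the named genes past the filter (log axis) by their difference between circPan3-/- and circPan3+/+ cells (log2, horizontal axis); the black line marks their median of 0.36, the dashed lines a 2-fold difference, and coloured lines the 10 members by role (blue, mucus and granule products; red, folding factors; green, Spdef). Clca1, Muc2, Spink4, Fcgbp and Agr2 lie in the right tail, past 2 on the axis, while Zg16, Spdef and Retnlb lie near the 2-fold line.

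Because the members were higher together, the sequence in front of their start sites is shown where the RefSeq promoter table (GRCm38.p6) holds it, which was the case for 4 of the 10: the mucin, its network partner, a folding factor and the regulator. Each entry is the 250 bases before the annotated start, read 5′ to 3′ on the strand of the gene. Muc2 lies at chr7:141690090-141690339 (plus strand), Fcgbp at chr7:28070986-28071235 (plus strand), Agr2 at chr12:35992675-35992924 (plus strand) and Spdef at chr17:27728952-27729201 (minus strand). Capitals mark GGAT on either strand (ATCC on the other), the core that SPDEF prefers among the ETS factors.
Muc2: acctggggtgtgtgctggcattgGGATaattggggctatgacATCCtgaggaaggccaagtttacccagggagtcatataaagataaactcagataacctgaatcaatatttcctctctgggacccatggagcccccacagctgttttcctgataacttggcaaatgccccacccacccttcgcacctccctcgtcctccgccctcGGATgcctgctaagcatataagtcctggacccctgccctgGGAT
Fcgbp: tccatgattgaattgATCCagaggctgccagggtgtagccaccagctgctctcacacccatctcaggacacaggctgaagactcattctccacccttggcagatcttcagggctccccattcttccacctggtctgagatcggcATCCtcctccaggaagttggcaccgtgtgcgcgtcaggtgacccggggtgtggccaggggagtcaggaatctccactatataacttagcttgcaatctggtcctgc
Agr2: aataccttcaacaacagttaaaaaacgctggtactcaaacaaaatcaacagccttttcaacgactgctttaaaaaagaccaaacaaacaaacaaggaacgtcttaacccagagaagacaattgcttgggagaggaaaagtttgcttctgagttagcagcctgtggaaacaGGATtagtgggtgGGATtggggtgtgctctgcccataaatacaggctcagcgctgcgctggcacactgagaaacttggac
Spdef: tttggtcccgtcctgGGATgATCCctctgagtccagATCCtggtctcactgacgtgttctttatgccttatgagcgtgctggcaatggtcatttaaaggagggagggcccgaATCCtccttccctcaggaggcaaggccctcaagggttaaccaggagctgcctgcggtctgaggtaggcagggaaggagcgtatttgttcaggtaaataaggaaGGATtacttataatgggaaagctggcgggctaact
GGAT occurred 4 times before Muc2, 2 times before Fcgbp, 2 times before Agr2 and 5 times before Spdef, with the 2 strands counted together. It stands in 74.1% of all 32851 promoter entries of the same length, with a median of 1, so its presence does not set these genes apart. The E-box CAGCTG, bound by ATOH1, occurred once each before Muc2 and Fcgbp (13.0% of entries), and the forkhead core GTAAANA once before Spdef (10.9%). CACCC, a core of KLF4 sites, occurred 3 times before Muc2, 4 times before Fcgbp and 2 times before Agr2 (52.0%). These matches on either strand describe the letters in the window, not binding.

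Most genes that share a locus or a family with the members stood near the median of all genes or under the control limits. Muc2 lies between the gel-forming mucin genes Muc6 and Muc5ac, with Muc5b next. Muc6 differed by 0.23, Muc5ac by 0.14 and Muc5b by 0.19, each with both values under the control limits. Tff3 is followed by Tff2 and Tff1, trefoil genes best known from the stomach, which differed by 0.43 and 0.50 with values under the limits. Agr3, the neighbour and paralog of Agr2, had 1.09 and 2.64, and Retnla, next to Retnlb, had 1.41 and 1.57, again under the limits. Ern1, the broadly expressed paralog of Ern2, had 4.95 and 5.54, a difference of 0.58, also under both limits. Spink1, of the family of Spink4, went the other way with 5.66 and 4.70, a difference of -0.96. Only its circPan3-/- value was under the limit, and relative to the shift it stood at -1.32. Spink2 and Spink5 differed by 0.14 and 0.04 under the limits. Over the 39 measured protein-coding genes within 2 places of a member, the median difference was 0.33, with Agr3 and Bag1 higher by 2-fold or more and Clca4a and Clca4b lower. Of named genes past the filter, 9.7% were higher and 2.74% lower by as much.

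An exception was the Clca cluster, in which members of 1 family stood apart in both directions. Of 7 measured Clca genes, 4 were higher by 2-fold or more and 2 lower, against 9.7% and 2.74% of named genes past the filter. Beside Clca1, Clca3b had signals of 7.70 and 10.98, a difference of 3.28 or 9.68-fold. Clca3a2 differed by 2.31 from a circPan3+/+ signal of 4.69 (at least 3.84-fold) and Clca3a1 had 4.34 and 6.37 (at least 2.48-fold). Clca4a and Clca4b lie between Clca3b and Clca1 and were lower. Clca4a had 8.99 and 6.57, a difference of -2.41 or 5.33-fold, and Clca4b 9.47 and 8.44, a difference of -1.04 or 2.05-fold, while Clca2 was under the limits with 1.72 and 1.89. The platform labels the Clca3a1 row Clca1, an older name. The brightest row of that symbol is the current Clca1, and the mean of both rows would give 2.65. The family's sequences are alike, and cross-hybridisation between its probes was not tested.

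**Figure D3:**
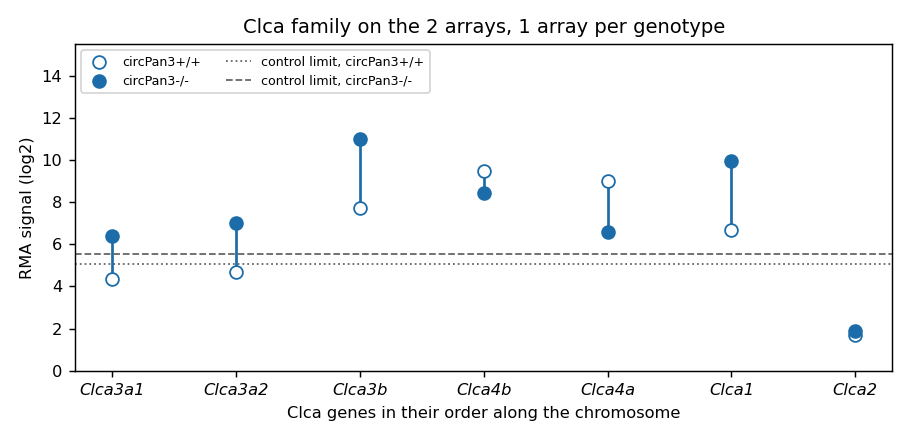
RMA signal (log2, vertical axis) of 7 Clca genes in chromosomal order on the circPan3+/+ array (open points) and the circPan3-/- array (filled points), with the control limits as horizontal lines. Clca3a1, Clca3a2, Clca3b and Clca1 are higher and Clca4b and Clca4a lower on the circPan3-/- array.

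Lists of other genes of the goblet cell programme are described next, and a positive difference under 0.36 lies below the shift of all named genes. Of named genes past the filter, 9.7% were higher by 2-fold or more as deposited, 3.69% with bounds and 3.86% after subtraction of the shift. Lower by as much were 2.74% as deposited and 0.536% with bounds. These shares apply to every list below. The shares with bounds include named genes under the limits on both arrays, which cannot pass 2-fold. Of the 3017 named genes above both limits, 400 were higher by 2-fold or more and 41 lower. A list of 21 further goblet products and granule genes holds some that are not specific to goblet cells. Of the 21, 11 were higher by 2-fold or more and 0 were lower, with a median of 1.08. The higher ones numbered 5 when bounds were used and 9 after subtraction of the shift. The tissue kallikrein gene Klk1 had 5.48 and 8.88, or 10.6-fold, and Ang4, an antimicrobial ribonuclease gene of goblet and Paneth cells, 6.64 and 10.01, or 10.3-fold. At the other end stood Vamp8, a gene of granule fusion, at -0.17 and Lypd8, which keeps flagellated bacteria off the epithelium, at -0.10. Among 11 other mucin genes the median was 0.19, with 3 at least 2-fold higher and 7 under the limits on both arrays. The higher ones numbered 2 when bounds were used and 2 after subtraction of the shift. The membrane mucin gene Muc4 had 3.87 and 5.88 (at least 1.77-fold) and Muc3a 5.07 and 6.73 (3.18-fold). Muc20 stood at -0.09 and Muc15 at -0.03 between values under the limits. The brightest of the list were Muc3, with 9.13 on each array, and Muc13, with 9.16 and 10.49 (2.52-fold).

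A further list holds 15 transcription factor genes of the intestinal epithelium, most of them tied to secretory or goblet fate. As deposited 10 were higher by 2-fold or more and 0 were lower, with a median of 1.34. The higher ones numbered 6 when bounds were used and 7 after subtraction of the shift. The 10 include 4 that are not specific to goblet fate: Hes1 (1.34), a Notch target that represses Atoh1, the general intestinal factor gene Cdx2 (1.78), Sox9 (1.37), which is also among the stem cell markers, and the enteroendocrine factor gene Neurog3 (1.34, under the limits), also among the enteroendocrine markers. Without these 4, a choice made after their values were seen, 6 of 11 were higher, with a median of 1.15. The higher ones then numbered 3 when bounds were used and 5 after subtraction of the shift. Atoh1, which commits progenitors to the secretory lineage, had 3.44 and 5.63 (at least 1.48-fold). Creb3l1 had 4.65 and 6.48 (at least 2.67-fold) and Klf4, a factor of goblet differentiation, 5.93 and 7.08 (2.21-fold). Creb3l4 at 2.44 and Foxa3 at 1.43 differed between values under the limits. Gfi1, which acts below Atoh1, differed by 0.29 under the limits, Xbp1, whose mRNA the IRE1 enzymes splice, by 0.36, and Bhlha15 by -0.12.

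Genes that glycosylate mucins, and the general folding genes, had list medians between that of all named genes and that of the members. Of 23 genes of mucin-type glycosylation, 10 passed 2-fold upwards (6 when bounds were used), and 0 downwards, with a median of 0.86. After subtraction of the shift 7 passed upwards and 1 downwards. Galnt4 (4.40 and 6.91, at least 3.60-fold) and Galnt7 (4.07 and 6.37, at least 2.48-fold), which encode GalNAc transferases for mucin-type sugar chains, stood highest. Gcnt1 at -0.75 and St3gal1 at -0.37 stood lowest, between values under the limits. Of 20 other folding genes of the endoplasmic reticulum, 5 passed 2-fold upwards (3 when bounds were used), and 0 downwards, with a median of 0.69. After subtraction of the shift 2 passed upwards. The 5 include Agr3, which did not pass the filter. The disulfide isomerase gene Pdia5 had 3.92 and 5.89 (at least 1.78-fold) and Hspa5, the main chaperone gene of that compartment, 7.83 and 9.14 (2.47-fold), while Sdf2l1 differed by 0.01. Agr2 at 2.27, and Ern2 at 1.88 between values under the limits, thus stood above the median of the general folding genes on these arrays. Pdia5 of the general list, at 1.97, stood above Ern2.

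Markers of the other secretory cells differed in how many passed 2-fold. Ang4 and Itln1 of the list of further goblet products are also among the Paneth cell markers. Of 10 Paneth cell markers 10 were higher by 2-fold or more, with a median of 2.07. This held for 9 of them when bounds were used and for 9 after subtraction of the shift. Their summed linear signal was 2432 on the circPan3+/+ and 9560 on the circPan3-/- array, or 3.93-fold, beside 1218 and 5650, or 4.64-fold, for the 10 goblet mucus genes. Over all named genes past the filter the sum was 635339 and 872814, or 1.37-fold. Every sum here and below is as deposited and not corrected for that rise. Lyz1, the lysozyme gene of Paneth cells, had 10.15 and 11.63. Of 11 enteroendocrine markers 7 were at least 2-fold higher, 3 with bounds and 4 after subtraction of the shift, and 7 lay under the limits on both arrays. Chga, a marker of most enteroendocrine cells, had 5.40 and 6.48, and the summed signal of the list, 185 and 464, includes those dim genes. All 9 tuft cell markers lay under the limits on both arrays, so no fold is given, with Dclk1 at 3.01 and 4.37, Il25 at 2.98 on both, and sums of 83.3 and 158.

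Some markers of absorptive cells, immune cells and stroma were lower on the circPan3-/- array. After subtraction of the shift, 5 enterocyte, 7 immune and 4 stromal or endothelial markers of the lists below were lower by 2-fold or more. Of 12 enterocyte markers 5 were at least 2-fold lower, also with bounds, and 0 higher, with 5 of the 12 above 0, a median of -0.52, a summed signal of 4255 against 2799, and Apoa4 at 8.55 and 6.05. Of 13 immune markers 6 were lower and 0 higher, 2 of them lower with bounds, with a median of -0.85 and sums of 2165 and 1721. Lyz2, the lysozyme gene of myeloid cells, made up most of both sums at 10.55 and 10.51, and without it, a choice made after its value was seen, they were 671 and 262. Cross-hybridisation between the probes of Lyz2 and Lyz1 was not tested. Ptprc, the pan-leukocyte gene, had 5.67 and 5.49. Of 9 stromal and endothelial markers 4 were lower (3 with bounds) and 1 higher (Acta2, at 4.84 and 6.33), with sums of 969 and 415. The 11 stem cell markers had 6 higher and 2 lower members, Lgr5 at -3.89 and Olfm4 at -1.25. With bounds 2 were higher and 2 lower, and after subtraction of the shift 5 were higher and 2 lower. The list's summed signal was 5044 and 1818, and 5 of its genes lay under the limits on both arrays. Without Lgr5 and Olfm4, a choice made after their values were seen, the other 9 summed to 161 and 441. Of these 9, 5 lay under the limits on both arrays. The part that the make-up of the sorted cells has in the values of the goblet mucus genes was not tested.

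**Figure D4:**
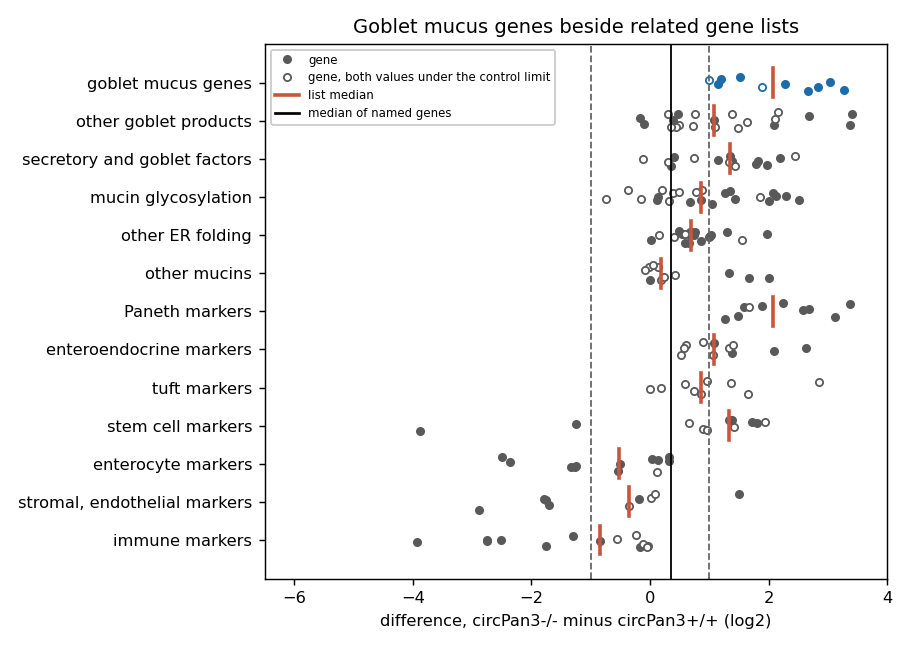
Difference between circPan3-/- and circPan3+/+ cells (log2, horizontal axis) of every measured gene in each list (points; open where both values lie under the control limits), with list medians in red, the median of named genes of 0.36 in black and 2-fold differences as dashed lines; points are spread vertically for sight only. The goblet mucus genes and the Paneth markers have medians of 2.08 and 2.07, and the enterocyte, stromal and immune markers have medians below 0.

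Over the 2 arrays, the 5 named genes whose pair of signals lay nearest to that of Muc2 (Euclidean distance on the log2 scale) were Oat at 0.26, Clca1 at 0.29, Ang4 at 0.36, Jun at 0.47 and Cps1 at 0.50. Oat and Cps1 encode mitochondrial enzymes of amino acid and ammonia metabolism, and Jun a transcription factor of the immediate early response. With 2 values per gene this likeness describes their level and difference on these arrays and no more.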

How the data were processed

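The deposited table holds 72688 rows with 1 value per array. They were made by the authors with Affymetrix Power Tools and RMA, per the submitters' processing notes; no version, setting or genome build is stated in the sources used here. As deposited, the values are read as log2 signals, which their range and the usual output of RMA point to, since no unit is stated. RMA corrects background and usually normalizes between arrays, but subtracts no probe-specific background, so low values can be background. Whether these arrays were normalized together is not stated, and their columns were not on a common scale. The median of all rows was 2.51 for circPan3+/+ and 2.62 for circPan3-/-. That of named genes past the filter was 4.23 and 4.56. Differences and folds as deposited should therefore not be read as normalized between arrays.

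Rows were named from the platform annotation, updated through Entrez identifiers in the RefSeq gene table (GRCm38.p6): 30607 rows had 1 symbol, 2143 several (not named) and 33206 transcript clusters none, beside 6732 controls. Predicted models and noncoding RNAs were left out of the named genes, and the brightest row by mean level stood for a gene. Differences were computed in Python 3.11.15 with pandas 2.3.3, and loess (span 0.3) with statsmodels 0.14.6; Retnlb, under the filter, took the value at the low end of the loess fit. The functions were tested on simulated data. With 1 array per genotype no test was made and a 2-fold rule of size was used; the number of arrays limits the precision. The members and lists were chosen with earlier results of these data known. Of each further list, up to 2 genes furthest apart in each direction and preset markers are named. The genes nearest to Muc2 followed a preset rule. The Clca, Muc and Spink paralogs, Muc3, Muc13, Pan3, Il13ra1, Il4ra and Stat6 were chosen after their values were seen. Some listed genes share a row with another gene and were not used. Alternatives were 3 ways of centring, loess, quantile normalization, other thresholds, filters and row rules.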

Additional observations from a re-analysis of the deposited data

How the results depend on the processing

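All 10 members stayed higher in circPan3-/- cells in each of the 61 member values recomputed under other scalings and row rules. This is a weak check. The medians subtracted were 0.36, 0.19 and 0.27, against a smallest member difference of 0.99 as deposited, so centring could not turn a sign. Averaging rows that share a current symbol changed no member. The 61 leave out the setting of dim values to the control limit. Under it Ern2 and Retnlb both stood at 0.50, which is only the gap between the limits. The median difference of the 10 members, 2.08 as deposited, was 1.72 with the median of named genes subtracted, 1.89 with that of all rows, 1.81 with that of negative controls, 1.63 after loess and 1.81 after quantile normalization. It was 2.66 over the 7 members with a mean level past the control limit. Among alternatives chosen after seeing the data it was 2.27 both over the 9 members past the filter and over the 7 whose values stand in no other row. The members at least 2-fold higher numbered 9 as deposited, 8 or 7 after centring, 7 after quantile normalization and 6 after loess, and 5 were at least 4-fold higher. Zg16 ranged from 0.62 to 1.14, Spdef from 0.74 to 1.20 and Tff3 from 0.99 to 1.51.

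Named genes at least 2-fold higher and lower, 1411 and 398 as deposited, numbered 561 and 721 with the median of named genes subtracted, 843 and 520 with that of all rows, 698 and 612 with that of negative controls, 505 and 719 after loess, and 629 and 646 after quantile normalization. The higher share of those called was 78.0% as deposited, 43.8% after centring on named genes, 41.3% after loess and 49.3% after quantile normalization. At 1.5-fold there were 4409 and 807, at 4-fold 136 and 99, with values under the limits set to them 537 and 78, with a mean level past the limit 560 and 104, and with both values past it 400 and 41. No paired analysis was possible because there was 1 array per genotype. Array number and signal over background, not depth, limit these values.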
